A study of Mus musculus with 6 samples.

Results

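The genes of the TYROBP adaptor, its relatives and the immunoreceptor tyrosine-based activation motif (ITAM) pathway were followed in sorted mouse bone marrow cells. The group held 9 genes, Tyrobp, Hcst, Fcer1g, Fcgr1, Fcgr2b, Fcgr3, Trem2, Syk and Themis2, taken by symbol from the 50763 genes of the deposited table. They were picked partly for the difference of Tyrobp and Themis2 between the groups described here. The differences of all 9 genes between those groups are therefore given as a description, with no test.

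Bulk RNA sequencing was done on CD34-KSL cells, which lack lineage markers and CD34 protein, carry c-Kit and Sca-1, and are a population rich in long-term blood stem cells. All mice had the genotype Tal1-tTA+/TRE-EGFR-tr+, so controls carried both transgenes too. The Tal1-driven transactivator tTA turns on the TRE-linked transgene unless doxycycline is present. In the EGFR-DN group (n = 3 libraries) mice had no doxycycline and made a truncated epidermal growth factor receptor that lacks the kinase domain, in addition to their wild-type receptor. In the EGFR-WT group (n = 3 libraries) mice drank doxycycline at 0.2 g/L and made the wild-type receptor alone. The truncated receptor and the absence of doxycycline cannot be told apart in this design. The sources used here do not give age or sex, nor whether libraries came from separate or pooled mice, so the spread between libraries may be partly technical.

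Adaptors with an ITAM have short cytoplasmic tails and little outside the cell, and they signal for receptors that have no signalling motif of their own. When a receptor is engaged, SRC-family kinases phosphorylate a pair of tyrosines in the ITAM and the kinase SYK docks there through its SH2 domains. TYROBP serves receptors such as TREM2 on myeloid and NK cells, and FCER1G is the gamma chain of the activating Fc receptors, which bind antibody. HCST carries a different motif, which recruits phosphoinositide 3-kinase, and FCGR2B carries an inhibitory motif that opposes ITAM signals. These genes are best known in monocytes, macrophages, neutrophils, mast cells, NK cells and B cells.

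The signalling motifs were read from the coding sequences of the GENCODE M21 transcripts (mouse build GRCm38) and are shown because they tell the 3 adaptors apart. Capitals mark the tyrosine codons of each motif.

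Tyrobp, chromosome 7, codons 92 to 106: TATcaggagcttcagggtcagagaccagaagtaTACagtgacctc

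Fcer1g, chromosome 1, codons 65 to 79: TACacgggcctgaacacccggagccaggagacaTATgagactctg

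Hcst, chromosome 7, codons 67 to 79: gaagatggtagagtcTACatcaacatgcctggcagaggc

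The ITAM was searched as a tyrosine, any 2 residues, leucine or isoleucine, then 6 to 8 residues and the same pattern again. Of the 9 genes it was found in Tyrobp and Fcer1g, and 2.83% of 21870 coding genes searched held it somewhere in the protein. The motif of Hcst, a tyrosine followed by any 2 residues and methionine, lay at residues 72 to 75 of 79. That shorter pattern was far commoner, in 24.6% of genes, and Syk held it as well.

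Tyrobp and Hcst are neighbours on opposite strands of chromosome 7, with their 3′ ends facing and 129 bases between them in RefSeq (GRCm38.p6). The library kit, Nextera XT, does not mark strand. Of the 9 genes, 8 had a promoter in the RefSeq table (GRCm38.p6), and Tyrobp was not matched. The 250 bases before the start are shown for Themis2 and Hcst, the largest and the smallest of the fitted differences described below. Capitals mark GGAAGT, a core of ETS-family sites such as those bound by the myeloid factor PU.1, or its reverse complement ACTTCC.

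Themis2, chr4:132796365-132796614, minus strand: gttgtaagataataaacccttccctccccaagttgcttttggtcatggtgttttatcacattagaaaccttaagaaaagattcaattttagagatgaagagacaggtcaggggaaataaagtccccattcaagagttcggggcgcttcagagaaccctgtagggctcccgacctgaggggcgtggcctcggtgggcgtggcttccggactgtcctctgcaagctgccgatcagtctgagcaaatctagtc

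Hcst, chr7:30419855-30420104, minus strand: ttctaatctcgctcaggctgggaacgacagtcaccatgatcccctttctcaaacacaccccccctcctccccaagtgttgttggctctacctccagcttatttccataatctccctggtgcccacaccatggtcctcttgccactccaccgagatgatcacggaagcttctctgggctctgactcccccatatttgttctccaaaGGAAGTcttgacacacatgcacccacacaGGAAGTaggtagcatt

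The Hcst window held the motif at 2 places and the Themis2 window at 0. Among the 10 windows of the 8 genes 3 held it, those of Hcst, Fcgr1 and Fcgr2b, against 19.7% of 32851 windows in the whole table. A match describes these letters and shows no binding. The lack of a match does not show that ETS-family sites are absent, since other forms of the site were not searched.

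Total counts ran from 24073204 to 36032504 per library. EGFR-DN replicate 3 stood apart, with 25.4% of its counts on 8 rRNA-like genes against 4.71% to 6.15% in the other 5 libraries. In that library, long transcripts were high and short ones low. Relative to the EGFR-WT mean, the median tested gene with a transcript over 4 kb lay at 0.56 on the log2(CPM + 0.5) scale, and the median gene under 1 kb at −0.38. In the other 5 libraries no length class had a median beyond 0.02 in size. The fitted difference of the 7 genes that passed the count filter is therefore given with and without that library. As a check of the transgene, Egfr was at 117, 135 and 50.3 CPM (counts scaled to a common library size by the trimmed mean of M-values) in the EGFR-DN libraries, against 0.191, 0.160 and 0.237 CPM in the EGFR-WT libraries. The table does not tell transgene reads from endogenous ones. From either source, Egfr transcript was scarce in the EGFR-WT libraries. The sort markers Kit and Ly6a (Sca-1) were present in every library, at 736 CPM or more for Kit and 46.7 CPM or more for Ly6a. Cd34 transcript was present as well, at 378 to 569 CPM in EGFR-DN and 318 to 410 CPM in EGFR-WT, although the sort removed cells with CD34 protein on the surface.

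Tyrobp, the most separated of the adaptors, was at 46.0, 34.8 and 11.6 CPM in EGFR-DN replicates 1 to 3, against 11.6, 15.6 and 14.7 CPM in EGFR-WT replicates 1 to 3. EGFR-DN replicates 1 and 2 were above all EGFR-WT libraries, while replicate 3 lay at the EGFR-WT minimum, so the groups overlapped. The means were 30.8 ± 17.6 CPM in EGFR-DN and 13.95 ± 2.12 CPM in EGFR-WT (n = 3 each, SD), a log2 fold change of 1.15 (EGFR-DN minus EGFR-WT, SE 0.46). Without EGFR-DN replicate 3 the value was 1.53, and without replicate 1 it was 0.74. In bulk RNA, a different number of cells of a type and a different amount of RNA per cell cannot be told apart, here and in what follows.

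Fcer1g was at 36.7, 41.0 and 14.5 CPM in EGFR-DN, against 21.95, 32.8 and 22.6 CPM in EGFR-WT. EGFR-DN replicate 3 was again the lowest of the 6 libraries, and the groups overlapped. The log2 fold change was 0.25 (SE 0.38). It was 0.58 without EGFR-DN replicate 3 and −0.01 without replicate 2, so single libraries set its size and its sign.

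Hcst differed least among the adaptors, at 17.2, 13.8 and 8.01 CPM in EGFR-DN and 12.2, 13.3 and 11.2 CPM in EGFR-WT. EGFR-DN held both the highest and the lowest library. The log2 fold change was 0.09 (SE 0.28), with 0.33 without EGFR-DN replicate 3 and −0.16 without replicate 1. All 3 adaptors thus had EGFR-DN replicate 3 at or near the bottom, and their transcripts are short, at 404 to 679 bases (median length of the protein-coding transcripts of a gene in GENCODE M21).

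**Figure D1:**
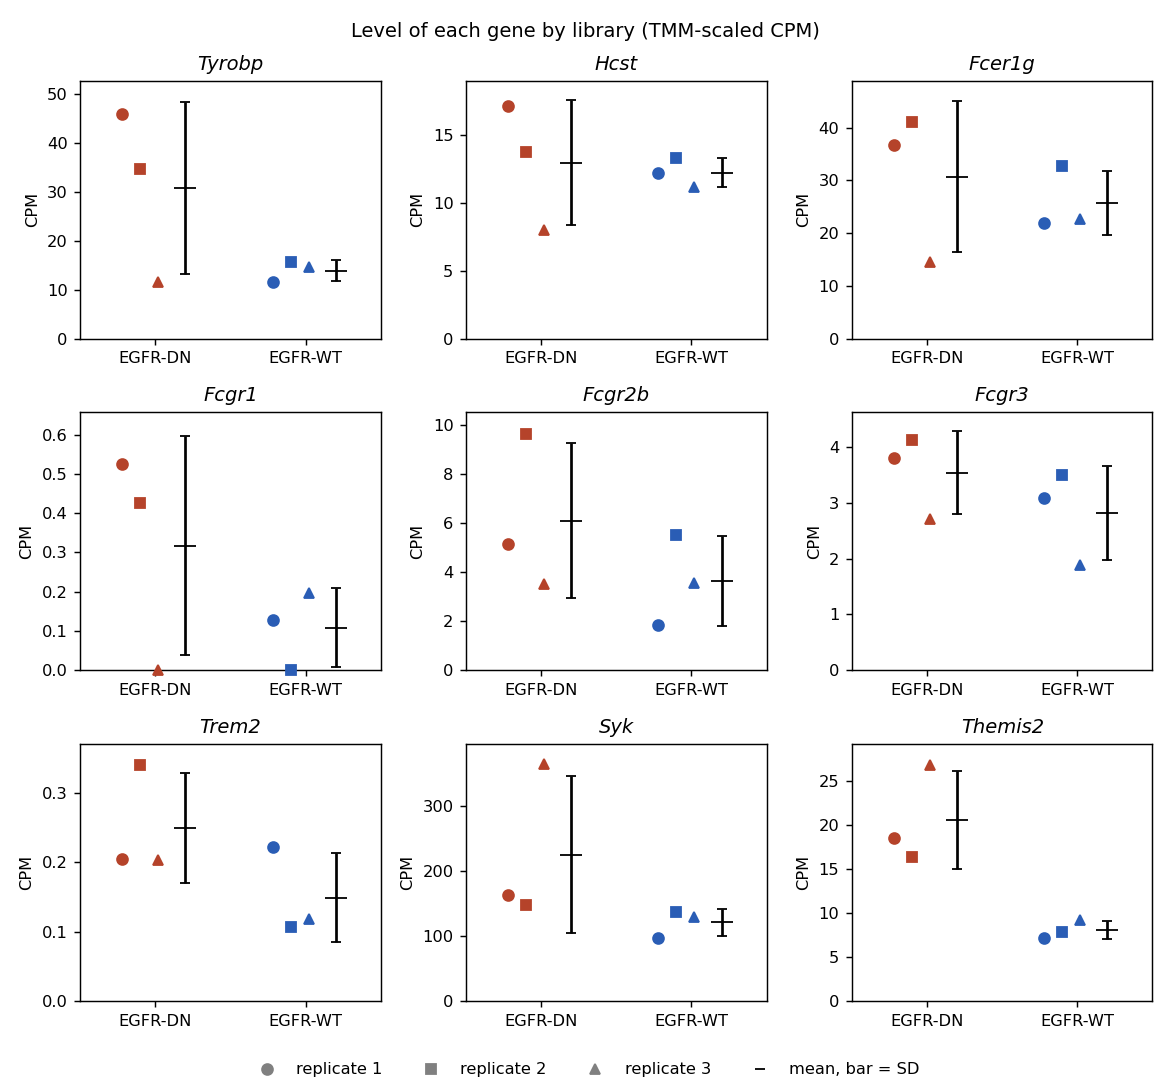
Level of each of the 9 genes in CPM (linear axis from 0), with 1 point per library, EGFR-DN in red and EGFR-WT in blue, symbols for the replicate number, and the mean with SD beside the points. Themis2 and Syk are the 2 genes in which every EGFR-DN library lies above every EGFR-WT library; in Tyrobp, EGFR-DN replicate 3 lies at the bottom of the EGFR-WT range.

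The adaptors were also set against each other within each library, a comparison chosen after their values were seen and in which the scaling of the library cancels. The ratio of Tyrobp to Fcer1g counts was 1.25, 0.849 and 0.800 in EGFR-DN replicates 1 to 3, against 0.527, 0.476 and 0.648 in EGFR-WT. Every EGFR-DN library was above every EGFR-WT library, replicate 3 included. The ratio of Tyrobp to Hcst was 2.68, 2.53 and 1.44 in EGFR-DN, against 0.950, 1.17 and 1.31 in EGFR-WT, again without overlap. The ratio of Fcer1g to Hcst overlapped, with a mean of 2.31 ± 0.61 in EGFR-DN and 2.10 ± 0.34 in EGFR-WT (n = 3 each, SD). Tyrobp was picked for its difference between these groups, so its 2 ratios describe that difference on another scale and are no separate evidence for it. Ratios show unequal differences and not which of the genes differed. A shift by transcript length, as in EGFR-DN replicate 3, need not cancel between genes of unlike length. The part of length in these ratios was not tested.

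**Figure D2:**
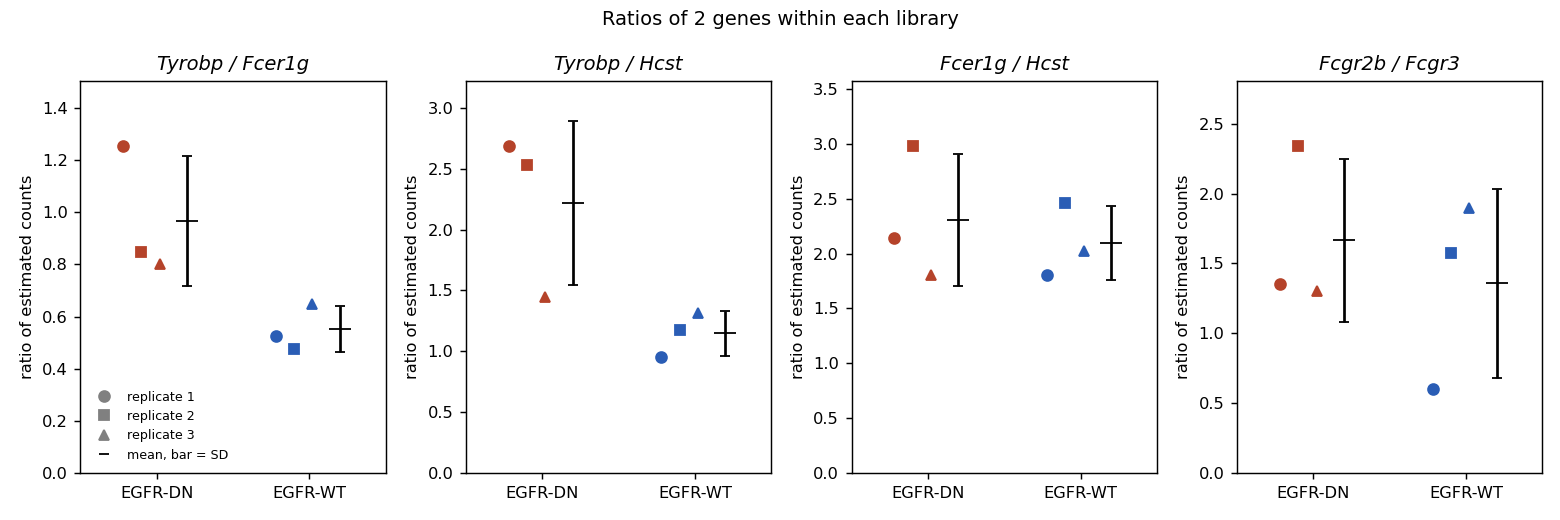
Ratio of the estimated counts of 2 genes within each library (linear axis from 0), EGFR-DN in red left of EGFR-WT in blue, with mean and SD. Tyrobp over Fcer1g and Tyrobp over Hcst do not overlap between the groups, whereas Fcer1g over Hcst and Fcgr2b over Fcgr3 do.

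Among the receptors, Fcgr2b (the inhibitory IgG receptor) and Fcgr3 (an activating low-affinity IgG receptor that pairs with FCER1G) were low but measurable. These were the 2 genes of the 9 with values that were not whole numbers, and in 6 of 6 libraries their sum was whole to within 0.01. In EGFR-DN replicate 1, for example, 176.55 and 130.45 estimated counts added to 307. The longest stretch that their coding sequences share without a difference is 129 bases. Of the 727 windows of 75 bases, the read length, in Fcgr3, 94 (12.9%) also occur in Fcgr2b, some of them outside that stretch. The longest stretch is shown because reads that fall within it cannot be assigned to either gene by sequence.

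Fcgr2b and Fcgr3, chromosome 1, coding bases 278 to 406 of Fcgr2b and 263 to 391 of Fcgr3: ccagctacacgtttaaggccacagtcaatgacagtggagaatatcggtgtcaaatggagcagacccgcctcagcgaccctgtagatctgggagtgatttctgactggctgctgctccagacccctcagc

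Fcgr2b was at 5.15, 9.64 and 3.53 CPM in EGFR-DN and 1.85, 5.53 and 3.56 CPM in EGFR-WT. The highest library was EGFR-DN replicate 2 and the lowest EGFR-WT replicate 1, and the groups overlapped. Its log2 fold change was 0.75 (SE 0.51), and 1.01 without EGFR-DN replicate 3. Leaving out any 1 library gave 0.25 (without EGFR-DN replicate 2) to 1.19 (without EGFR-WT replicate 2). Fcgr3 was at 3.80, 4.12 and 2.71 CPM in EGFR-DN and 3.08, 3.50 and 1.88 CPM in EGFR-WT, with a log2 fold change of 0.32 (SE 0.33). The value was 0.48 without EGFR-DN replicate 3, and leaving out any 1 library gave 0.10 (without EGFR-WT replicate 3) to 0.50 (without EGFR-WT replicate 2). Since the split of shared reads between the genes is uncertain, their sum is the firmer value. It was 8.95, 13.8 and 6.24 CPM in EGFR-DN and 4.92, 9.03 and 5.44 CPM in EGFR-WT, and the groups overlapped there as well. The ratio of Fcgr2b to Fcgr3 counts ran from 1.30 to 2.34 in EGFR-DN and from 0.599 to 1.90 in EGFR-WT.

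Fcgr1, the high-affinity IgG receptor of monocytes and macrophages, had 18, 15 and 0 counts in EGFR-DN and 4, 0 and 5 counts in EGFR-WT. Trem2, a lipid-sensing receptor of macrophages that signals through TYROBP, had 7, 12 and 4 counts in EGFR-DN and 7, 4 and 3 in EGFR-WT. A count of 0 allows up to 3 counts, which is 0.0833 to 0.125 CPM on the total counts before TMM scaling (counting error only). EGFR-DN replicate 3 had a scaling factor of 0.820, so its limit is higher on the TMM-scaled CPM given here. Fcgr1 was above 3 counts in EGFR-DN replicates 1 and 2, at 0.525 and 0.426 CPM, and in EGFR-WT replicates 1 and 3, at 0.127 and 0.197 CPM. It was at 0 counts in EGFR-DN replicate 3 and EGFR-WT replicate 2. The groups overlapped in both genes. They were the 2 genes of the 9 that the count filter removed, so they have no fitted difference.

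Syk, the kinase that ITAMs recruit, was at 163, 148 and 364 CPM in EGFR-DN, against 97.7, 137 and 129.7 CPM in EGFR-WT. Every EGFR-DN library was above every EGFR-WT library, by a narrow margin for replicate 2 and a wide one for replicate 3. The log2 fold change was 0.89 (SE 0.37) but 0.36 without EGFR-DN replicate 3. Its transcript is long, at 5122 bases.

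Themis2 encodes a cytosolic protein of B cells and macrophages that binds the adaptor GRB2 and acts in antigen-receptor and Toll-like receptor signalling. It was at 18.6, 16.4 and 26.9 CPM in EGFR-DN, against 7.21, 7.89 and 9.23 CPM in EGFR-WT. The lowest EGFR-DN library was well above the highest EGFR-WT library. The means were 20.6 ± 5.55 CPM in EGFR-DN and 8.11 ± 1.03 CPM in EGFR-WT (n = 3 each, SD), a log2 fold change of 1.34 (SE 0.24). Leaving out any 1 library kept the value between 1.10 and 1.47, with the lowest without EGFR-DN replicate 3. Of the 7 genes with a fitted value, Themis2 moved least in proportion when libraries were left out.

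Without overlap, then, 2 of the 9 genes lay above EGFR-WT in every EGFR-DN library, where 9.18% of the 19313 genes tested did so. The genes were picked partly on this same contrast, so nothing is read from this count.

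**Figure D3:**
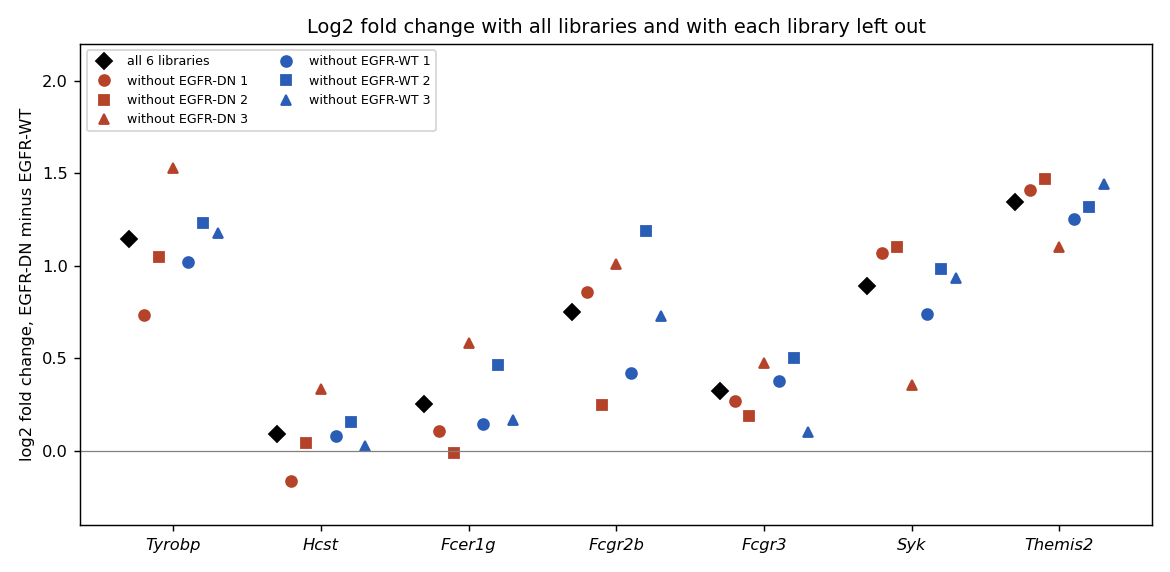
Log2 fold change (EGFR-DN minus EGFR-WT) of the 7 genes that passed the count filter, with all 6 libraries (black) and with each library left out in turn (red for EGFR-DN, blue for EGFR-WT). Themis2 stays between 1.10 and 1.47, Syk drops to 0.36 without EGFR-DN replicate 3, and Hcst and Fcer1g cross 0.

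The genes fell into different patterns over the libraries. In EGFR-DN replicate 3, on the log2(CPM + 0.5) scale and relative to the EGFR-WT mean, Themis2 lay at 1.68 and Syk at 1.59. Fcer1g lay at −0.79, Hcst at −0.57 and Tyrobp at −0.25 in the same library. In EGFR-DN replicate 1 the highest were Tyrobp at 1.70 and Themis2 at 1.15, and the other 5 genes with a fitted value lay between 0.41 and 0.55. Tyrobp and Themis2 therefore agreed in EGFR-DN replicates 1 and 2 and parted in replicate 3. The library's shift by transcript length, given above, ran the same way for Syk (5122 bases), which was high, and for the 3 short adaptors, which were low. Themis2, at 3079 bases, falls in the class of 2 to 4 kb, whose median in that library was 0.07. The part of the length shift in these values was not tested.

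**Figure D4:**
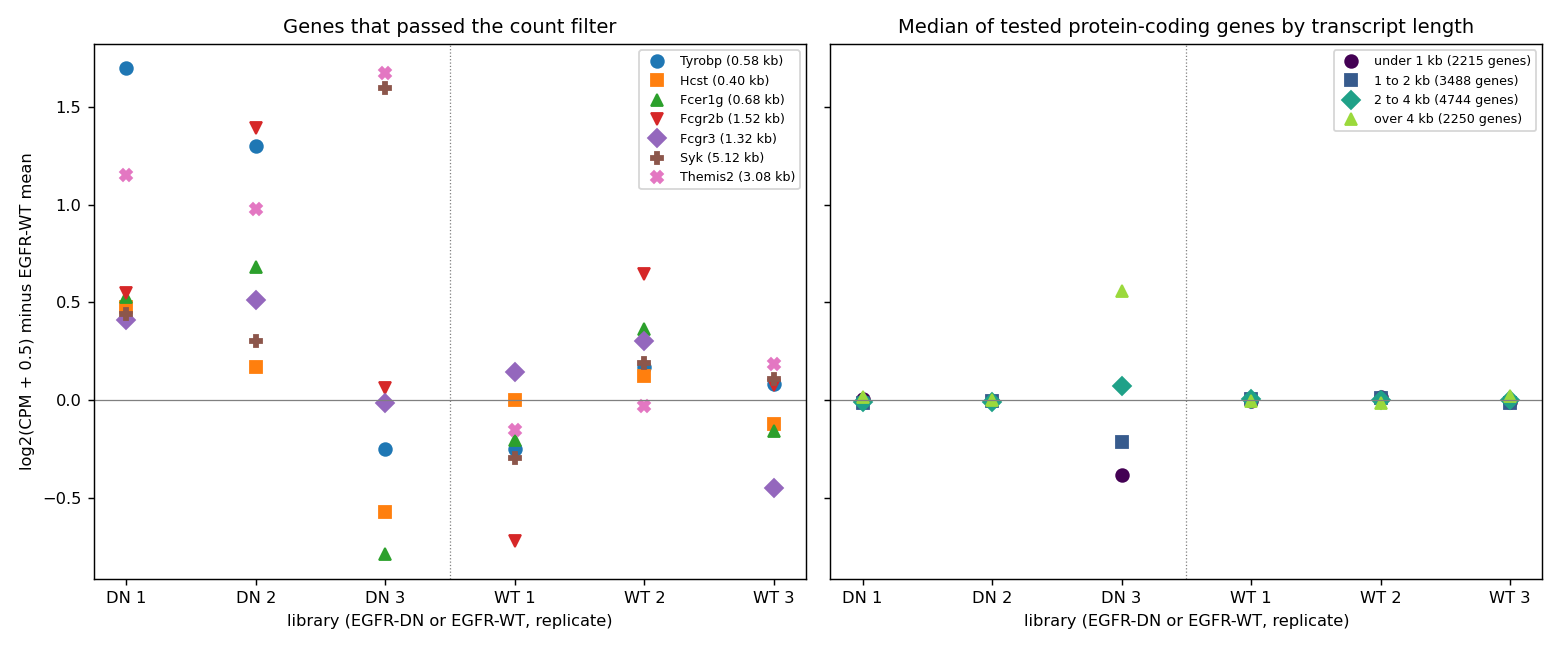
Left, log2(CPM + 0.5) minus the EGFR-WT mean for the 7 genes that passed the count filter, by library (EGFR-DN replicates left of EGFR-WT replicates), with transcript length in the legend. Right, the median of the same quantity over tested protein-coding genes in 4 classes of transcript length. In EGFR-DN replicate 3 genes over 4 kb have a median of 0.56 and genes under 1 kb a median of −0.38, and the adaptors and Syk lie on the corresponding sides.

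Other genes were ranked by the likeness of their profile to that of Tyrobp or of Themis2. Likeness was the root mean square, over the 6 libraries, of the difference between 2 centred log2(CPM + 0.5) profiles, among 10830 other genes with a mean of at least 4 CPM. The 5 nearest to Tyrobp were Cox6a2 (0.09), Bex6 (0.13), Clec2i (0.14), the NADPH oxidase subunit gene Ncf1 (0.16) and Mgst2 (0.17). Ncf1 was at 40.1, 30.4 and 13.4 CPM in EGFR-DN and 13.1, 15.6 and 13.4 CPM in EGFR-WT, with EGFR-DN replicate 3 inside the EGFR-WT range. The 4 nearest to Themis2 were Tent5a (0.06), Ldlrad4 (0.07), Akna (0.15) and the cytokine receptor gene Csf2rb2 (0.17). Tent5a was at 35.5, 32.4 and 46.9 CPM in EGFR-DN and 13.3, 15.6 and 18.5 CPM in EGFR-WT, with EGFR-DN replicate 3 the highest library. The ranking uses all 6 libraries, EGFR-DN replicate 3 included, so the values of these genes follow from it and are a description.

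Levels of the genes were compared per kilobase of transcript. In EGFR-WT the order was Fcer1g at 38.0 ± 8.93 CPM per kb, Hcst at 30.2 ± 2.65, Tyrobp at 24.0 ± 3.65 and Syk at 23.7 ± 4.08 (SD, n = 3). Themis2 at 2.63 ± 0.33, Fcgr2b at 2.40 ± 1.21 and Fcgr3 at 2.13 ± 0.64 CPM per kb followed, and Trem2 at 0.139 ± 0.060 and Fcgr1 at 0.042 ± 0.039 came last. Libraries overlapped between Fcer1g and Hcst, between Tyrobp and Syk, and among Themis2, Fcgr2b and Fcgr3. The steps from Hcst to Tyrobp, from Syk to Themis2 and from Fcgr3 to Trem2 did not overlap in any EGFR-WT library. In EGFR-DN Tyrobp came first at 53.1 ± 30.3 CPM per kb, before Fcer1g at 45.3 ± 21.0, Syk at 44.0 ± 23.5 and Hcst at 32.1 ± 11.4 (SD, n = 3), with overlap between neighbours among these 4. The 3 adaptors and the kinase thus stood far above the IgG receptors, and Trem2, the TYROBP partner among the 9, was near the limit of detection.

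Other genes of the pathway were taken from 9 lists, of which 92 further genes passed the count filter and 21 did not. By edgeR 0 of the 92 passed an adjusted p of 0.05 in either direction, where 0.00518% of all genes did (Egfr alone), and 16 had an unadjusted p under 0.05, where 6.69% of all genes did. By the DESeq2 Wald test 4 passed, Cd300lb, Card9, Blnk and Cd33, all higher, where 0.775% of all genes did. On simulated data that test made false calls at more than its nominal rate. The simulation gave every gene the same spread and held no library like EGFR-DN replicate 3, so that rate may not carry over to these data. By edgeR without EGFR-DN replicate 3 Cd33 and Lat2 passed, where 0.286% of all genes did. The log2 fold change was above 0 in 71 of the 92 genes and below 0 in 21, with a median of 0.27, against 51.0% above 0 and a median of 0.01 over all genes tested. The groups did not overlap with EGFR-DN on top in 23 of the 92 and with EGFR-DN at the bottom in 4, where 9.18% and 8.72% of all genes did. These counts include EGFR-DN replicate 3, in which long transcripts were high, and the lists were written with earlier results of these data known. Without that library the list median fell for kinases (0.21), adaptors and effectors (0.16) and phosphatases and negative regulators (0.11), and rose in the other lists. Each fit applied the count filter anew, so the genes behind a list median can differ between fits, here and below. The part of transcript length in these counts was not tested.

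Among receptors that signal through TYROBP or HCST, the median log2 fold change was 0.68 and 8 of the 10 tested were above 0. Leaving out any 1 library gave a median of 0.39 (without EGFR-DN replicate 2) to 0.86 (without EGFR-DN replicate 3). Cd300lb, an activating receptor of myeloid cells, was at 11.2, 8.94 and 5.83 CPM in EGFR-DN, against 1.33, 3.04 and 2.29 CPM in EGFR-WT, with no overlap. Its log2 fold change was 1.96 (SE 0.39; adjusted p = 0.642 by edgeR and 0.00091 by DESeq2). Trem3, a relative of Trem2, was at 1.62 ± 0.48 CPM in EGFR-DN and 0.763 ± 0.164 CPM in EGFR-WT (n = 3 each, SD). Its log2 fold change was 1.08 (SE 0.38) and did not pass. The partners in this list were scarce, and Cd300lb and Cd200r4 had the highest means.

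Receptors listed as coupled to FCER1G had a median of 0.15 over 6 tested, which ran from 0.01 (without EGFR-WT replicate 1) to 0.31 (without EGFR-DN replicate 3) when any 1 library was left out. Clec4e, a receptor for mycobacterial glycolipid, was at 14.7 ± 2.19 CPM in EGFR-DN and 13.6 ± 1.97 CPM in EGFR-WT (n = 3 each, SD), a log2 fold change of 0.11 (SE 0.19). Clec7a, the beta-glucan receptor, is counted in this list and its median although it does not depend on FCER1G to signal. Its value was −0.90 (SE 0.44), the lowest of the list, and did not pass. Il3ra, the interleukin-3 receptor alpha chain, was at 0.42 (SE 0.22) and did not pass either. Other Fc receptors had a median of −0.13 over 7 tested, which ran from −0.42 (without EGFR-DN replicate 1) to 0.08 (without EGFR-DN replicate 3). They included Fcgrt, the neonatal IgG receptor, at −0.53 (SE 0.32), and Fcrl1, a receptor of B cells, at 1.30 (SE 0.37), neither of which passed. Fcer1a and Ms4a2, which join FCER1G in the IgE receptor of mast cells and basophils, were at −0.13 (SE 0.36) and −0.73 (SE 0.35).

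Of the kinases that act with SYK, the median was 0.47, with 11 of the 13 tested above 0, and it ran from 0.21 (without EGFR-DN replicate 3) to 0.54 (without EGFR-DN replicate 1). The most abundant were Btk at 94.4 ± 11.0 CPM in EGFR-DN and 91.4 ± 5.86 CPM in EGFR-WT, and Fyn at 75.1 ± 1.37 CPM in EGFR-DN and 80.8 ± 6.56 CPM in EGFR-WT (SDs, n = 3 each). Their log2 fold changes were 0.05 and −0.11. Tec was at 0.37 (SE 0.18) and Blk at 1.28 (SE 0.66), and neither passed. Adaptors and effectors below SYK had a median of 0.27, with 19 of 23 above 0, and it ran from 0.16 (without EGFR-DN replicate 3) to 0.37 (without EGFR-WT replicate 3). Card9, which links SYK to NF-kappaB, was at 4.14, 2.93 and 4.62 CPM in EGFR-DN, against 0.508, 1.12 and 1.36 CPM in EGFR-WT. Its log2 fold change was 1.97 (SE 0.42; adjusted p = 0.690 by edgeR and 0.00334 by DESeq2). Blnk, the SYK substrate of B cells, had 8.26 ± 1.12 CPM in EGFR-DN against 3.12 ± 1.35 CPM in EGFR-WT (n = 3 each, SD), with a log2 fold change by DESeq2 of 1.41 (SE 0.39; adjusted p = 0.0483 by DESeq2 and 0.690 by edgeR). The abundant phospholipase gene Plcg2 was at 0.01 (SE 0.15), and Grb2, whose product binds THEMIS2, was at 0.34 (SE 0.19).

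Inhibitory receptors had a median of 0.21 over 13 tested, with 10 above 0. It ran from 0.06 (without EGFR-DN replicate 2) to 0.79 (without EGFR-WT replicate 3) when any 1 library was left out. With all libraries kept, the median was 0.43 with the rRNA-like genes removed and 0.62 with no count filter. Its size therefore did not depend on single libraries alone. Cd33, a sialic acid-binding lectin of myeloid cells, was at 13.4, 9.22 and 8.72 CPM in EGFR-DN, against 3.97, 3.36 and 3.00 CPM in EGFR-WT. All EGFR-DN libraries, replicate 3 among them, were above all EGFR-WT libraries. Its log2 fold change was 1.60 (SE 0.26), with an adjusted p of 0.590 by edgeR, 0.0447 by edgeR without EGFR-DN replicate 3 and 3.07e-05 by DESeq2. Pecam1 was at 0.87 (SE 0.30) and 0.44 without EGFR-DN replicate 3, and Cd72 was at 0.21 (SE 0.27). Phosphatases and negative regulators had a median of 0.18, with 12 of 15 above 0, and it was 0.11 without EGFR-DN replicate 3. The phosphatase genes Ptpn6 and Inpp5d, which act on ITAM signals, were at 0.18 (SE 0.14) and 0.61 (SE 0.30), and Inpp5d was at 0.20 without EGFR-DN replicate 3. Dok3 was at 0.55 (SE 0.21) and Sla2 at −0.54 (SE 0.21), and neither passed. The other ITAM chains had a median of 0.10 over 4 tested, and it was 0.32 without EGFR-DN replicate 2 and 0.29 without replicate 3. In that list the B cell receptor chain Cd79a was at 1.34 (SE 0.54) and its partner Cd79b at 0.09 (SE 0.24). The 1 tested relative of Themis2 was at 0.82, and ran from 0.39 (without EGFR-WT replicate 1) to 1.33 (without EGFR-WT replicate 3).

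**Figure D5:**
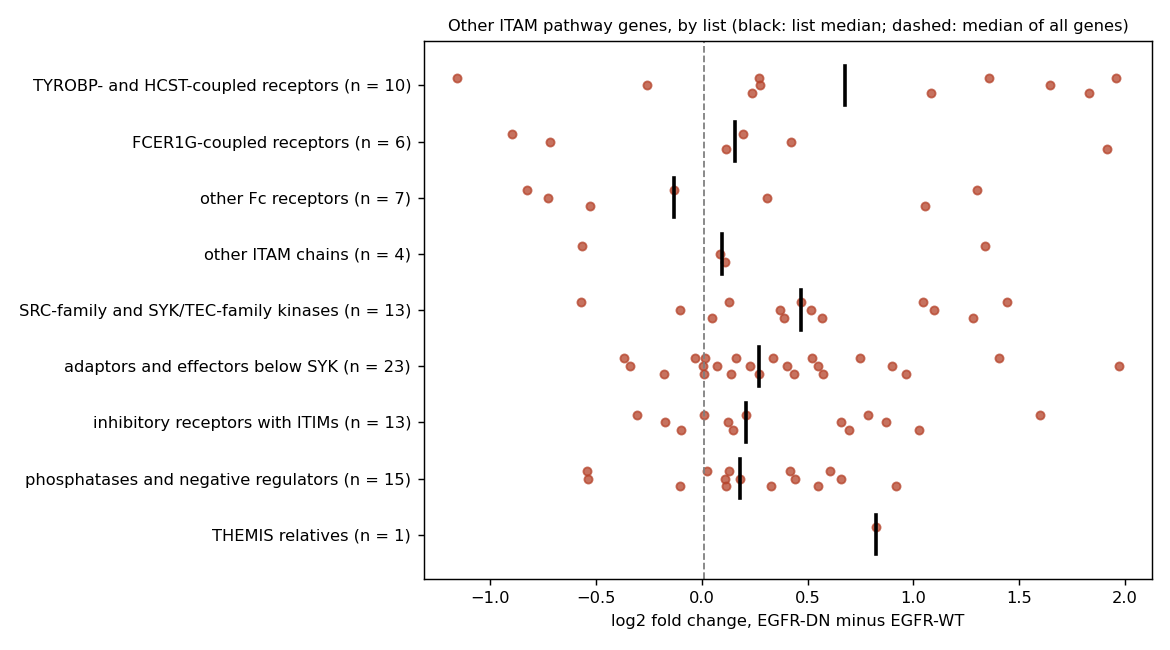
Log2 fold change (EGFR-DN minus EGFR-WT) of each tested gene in the 9 pathway lists, with 1 point per gene, the list median as a black bar and the median of all tested genes (0.01) as a dashed line. Most points lie right of 0 in every list but the other Fc receptors (3 of 7), with none past an adjusted p of 0.05 by edgeR.

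Markers of cells known for these genes moved in part with the groups. The neutrophil list (12 markers, all detected) summed to 778 to 1422 CPM in EGFR-DN and 369 to 534 CPM in EGFR-WT, with no overlap, and most of it was Mpo, whose transcript is also found in progenitors. The B cell list (8 markers in the table) summed to 50.9 to 70.1 CPM in EGFR-DN and 36.5 to 47.8 CPM in EGFR-WT, and the NK and T cell list (10 markers) to 174 to 267 CPM in EGFR-DN and 141 to 173 CPM in EGFR-WT. Most of the NK and T cell sum was Nkg7. Of the B cell markers Cd79a, Cd79b and Blnk are also in the pathway lists, as are Fcer1a and Ms4a2 of the mast cell and basophil markers. The monocyte and macrophage list (14 markers) summed to 122 to 283 CPM in EGFR-DN and 245 to 260 CPM in EGFR-WT and overlapped. Most of it was Lyz2, a general myeloid transcript, at 193, 205 and 81.0 CPM in EGFR-DN and 222.5, 212 and 201 CPM in EGFR-WT. Of its 9 tested markers 7 were above 0 and 3 had an unadjusted p under 0.05 by edgeR, where 51.0% and 6.69% of all genes did. Such p-values were held by 6 of 9 tested neutrophil markers, 3 of 6 B cell markers and 3 of 8 in each of the dendritic and NK and T cell lists. The count was 2 of 6 for mast cells and basophils, 1 of 6 for erythroid, 1 of 10 for stem cell and sort markers and 0 of 5 for megakaryocytes and platelets. Ms4a6c, the second by mean level, was at 27.8, 20.2 and 7.01 CPM in EGFR-DN and 11.4, 15.7 and 11.98 CPM in EGFR-WT. Markers of mature macrophages were scarce, since C1qa, C1qb and C1qc were at no more than 1.37 CPM in any library. The neutrophil surface marker Ly6g was at no more than 0.058 CPM, and Cd3e at no more than 0.254 CPM. The mast cell and basophil list (8 markers) summed to 56.1 to 88.5 CPM in EGFR-DN and 66.4 to 115.4 CPM in EGFR-WT. The dendritic cell list (10 markers) summed to 80.9 to 152 CPM in EGFR-DN and 106 to 112.1 CPM in EGFR-WT. No marker in these lists was at 0 in all 6 libraries. The stem cell and sort list (10 markers) summed to 1869 to 4060 CPM in EGFR-DN and 2111 to 2328 CPM in EGFR-WT, with its top in EGFR-DN replicate 3. The megakaryocyte and platelet list (6 markers) summed to 431 to 665 CPM in EGFR-DN and 391 to 771 CPM in EGFR-WT, and the erythroid list (6 markers) to 310.3 to 553 CPM in EGFR-DN and 215 to 353 CPM in EGFR-WT. The part of these markers in the values of the 9 genes was not tested.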

How the data were processed

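RNA was reverse transcribed from 10 ng with oligo(dT) primers and SMART-Seq V4, and libraries were read as single reads of 75 bases, per the labels' protocols. The deposited file holds estimated counts for each gene symbol, not scaled by the authors, and 79.4% of its values are whole. DRAGEN, DESeq2 1.40.2, R 4.3.1 and mm39 appear in the submitters' processing notes, without their roles. Annotation and strand handling were not given in the sources used here.

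All columns belong to the 6 libraries, and no row lacks a gene name. Estimated counts were rounded for the tests. Genes were filtered with filterByExpr (19313 left), scaled by TMM and tested with edgeR 4.0.16 in R 4.3.3 (quasi-likelihood, two-sided, Benjamini-Hochberg, threshold 0.05). SE is the log2 fold change over the square root of F. CPM are TMM-scaled from unrounded values. Alternatives used DESeq2 1.42.0 and limma 3.58.1. The fits were tested on data simulated with the same spread for every gene and no outlying library. There the DESeq2 Wald test made more false calls than its nominal rate and edgeR stayed near or below it. The limit of false calls for the alternatives was loosened after this was seen. No pair of libraries was a duplicate (smallest chi-square per degree of freedom 14.9).

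Members and lists were chosen with earlier results of these data known. Named pathway genes are, per list, the 2 with the highest mean CPM and the 2 with the smallest unadjusted p, among those at 1 CPM or more. Of each marker list the 2 highest were looked at, and others are named as defining markers. Of the list symbols, 2 were not found. Transcript lengths are from GENCODE M21 (GRCm38) and covered 96.8% of the 13117 tested protein-coding genes. Promoters are from RefSeq. No coordinates are carried between GRCm38 and mm39. For Themis2, 1 of the 5 genes of most alike pattern is not reported here.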

Additional observations from a re-analysis of the deposited data

How the results depend on the processing

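With all 6 libraries and edgeR 1 gene passed, Egfr. The DESeq2 Wald test called 135 genes in all (99 higher and 36 lower) and 4 pathway genes, and limma-voom called 0 in all (1187 had an unadjusted p under 0.05, against 1293 by edgeR). Leaving out 1 library gave 0 to 57 genes in all, and 0 to 2 pathway genes, against 0 pathway genes with all libraries. The 57 came without EGFR-DN replicate 3, and 0 without EGFR-WT replicate 1, 2 or 3, where edgeR gave 539 to 852 genes an unadjusted p under 0.05. With the replicate block 1 gene was called, as without it. Same-numbered deviations from the group means correlated at −0.02, 0.05 and 0.06 across genes. EGFR-DN replicates 2 and 3 correlated best with their own number, and EGFR-DN replicate 1 with EGFR-WT replicate 2 (0.10). With 3 libraries per group these values cannot tell whether the replicate numbers pair the libraries. Of 98 values of the 7 fitted genes over 14 alternatives, 97 moved by less than 1 SD of the replicates, and the exception was Syk without EGFR-DN replicate 3 (0.36). Leaving out 1 of 3 libraries can hardly move a group mean by that much, so this count is no evidence of stability. The sign of Hcst changed without EGFR-DN replicate 1 (−0.16) and that of Fcer1g without replicate 2 (−0.01). Of 125 list medians 45 moved by more than their SD, and the median of other Fc receptors ran from −0.42 to 0.26. The count filter was applied anew in each fit, so the genes behind a list median can differ between alternatives. With at least 50 counts required in 3 libraries, the median of receptors coupled to TYROBP or HCST was 1.98, from Cd300lb alone. In the other alternatives it ran from 0.39 to 0.86. Scaling by library size alone took the median of all genes to −0.10, and the median of other ITAM chains to −0.04 with it. The cause of the other moves was not tested. Depth limits Fcgr1 and Trem2, which had at most 18 counts in a library.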
